A study of Homo sapiens with 7 samples.

Results

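The stress-induced genes ATF3, GADD45A, GADD45B and DDIT4 were followed through 6 lists of super-enhancers (SEs), long stretches of chromatin rich in acetylated lysine 27 of histone H3 (H3K27ac), a mark of active enhancers and promoters. The lists came from H3K27ac ChIP-seq of HepG2 cells, an established human liver cancer line, with 3 libraries from cells treated with tunicamycin (TM) and 3 from cells treated with DMSO, the solvent control. TM stops the attachment of N-glycans to new proteins in the endoplasmic reticulum (ER), where proteins then misfold and cause ER stress (ERS). The dose and time of TM for these libraries are not given in the labels, and an input library from DMSO cells was not analysed here. Whether the 3 libraries of a group came from separate cultures is not in the labels, and p-values cover only the spread among these libraries, which may be technical. The members were all SEs linked in the files to one of the 4 genes by the nearest transcription start site, and every SE of another name that shared 1 bp or more with them. These were 17 named and 3 overlapping SEs, 20 of 7472 listed in all, of which TM 1, TM 2 and TM 3 held 4, 5 and 5 and each DMSO library held 2. After SEs sharing 1 bp or more were merged across libraries they formed 4 of 1784 merged regions, 1 for each gene, and 2 further SEs linked to GNG12-AS1 in TM 1 and TM 2 fell into the GADD45A region.

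ERS activates the unfolded protein response and, through phosphorylation of the translation factor eIF2α by PERK, the integrated stress response, in which the transcription factor ATF4 raises the transcription of stress genes. ATF3 is itself a transcription factor of the bZIP class, induced rapidly by many stresses. GADD45A and GADD45B are small acidic proteins induced by DNA damage and other stresses, which bind cell cycle regulators and the MAP kinase kinase kinase MEKK4. DDIT4 (REDD1) acts through the TSC1/TSC2 complex to restrain mTORC1, the kinase complex that drives cell growth.

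For each SE the files give its ends, the number of joined peaks and a summed signal, which is a density (signal per bp) times the length. A list ends at a threshold of its own library, so a region outside a list has no value there. The threshold applies to each joined SE, so absence means only that no single joined region there reached it. The threshold of a library was taken as its lowest listed signal, since the cutoff used to make each list is not given. The thresholds were 18282, 26265 and 18884 in TM 1, TM 2 and TM 3, against 24793, 16747 and 24383 in DMSO 1, DMSO 2 and DMSO 3. TM lists held 1130, 1507 and 1253 SEs of 40.8, 44.0 and 38.0 kb (medians), against 1132, 1290 and 1160 SEs of 61.4, 50.9 and 65.5 kb in DMSO lists. In the 670 merged regions listed in all 6 libraries, called shared regions here, the median log2 density was 0.38 higher in TM than in DMSO, and changes in density are given relative to that shift, after each library was centred on its median. ChIP signal from fewer marked cells and less mark per cell cannot be told apart. Of 20 hepatocyte markers, CPS1 had a linked SE in all 6 libraries and FOXA1 in 0 TM and 2 DMSO libraries, while the other 18, among them ALB, AFP, APOA1 and HNF4A, were linked in none. Of 22 markers of other liver cell types, 5 were linked in at least 1 library. CFTR was linked in 3 TM and 3 DMSO libraries, PTPRC in 2 TM and 0 DMSO, KRT7 in 1 TM and 0 DMSO, PDGFRB in 1 TM and 3 DMSO, and LUM in 0 TM and 3 DMSO libraries.

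By linked name, ATF3, GADD45A and GADD45B had an SE in 3 of 3 TM and in 0 of 3 DMSO libraries, and DDIT4 had one in all 6. Of all 2002 linked genes, 139 (6.94%) had an SE by name in every TM and no DMSO library. The reverse held for 94 (4.7%), and 523 (26.1%) had one in all 6. By merged region, ATF3 and GADD45B were TM-only (listed in every TM and no DMSO library), whereas the GADD45A region was listed in all 6, under another gene's name in DMSO. TM-only regions were 135 of 1784 merged regions (7.57%), and DMSO-only regions were 97 (5.44%), so 2 of the 4 members belonged to the first class and 0 to the second. With 3 against 3 libraries the exact permutation test of a call cannot give a p under 0.1, which is the two-sided p of both TM-only members.

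ATF3 had 1 SE in each TM library, which covered its linked start site, and none in DMSO. The merged region lay at chr1:212716102-212784200 (positions as deposited, whose build is not named in the files), and the midpoint of each SE fell in intron 1 of 3 of the ATF3 transcript NM_001030287. The RefSeq table of GRCh38.p14 holds 2 ATF3 promoters, both on the plus strand, and both are shown because the files' coordinates are on another build and were not matched to either. Each run ends at the base before the start site, and capitals mark matches to the motifs searched on both strands.
ATF3, chr1:212565157-212565406: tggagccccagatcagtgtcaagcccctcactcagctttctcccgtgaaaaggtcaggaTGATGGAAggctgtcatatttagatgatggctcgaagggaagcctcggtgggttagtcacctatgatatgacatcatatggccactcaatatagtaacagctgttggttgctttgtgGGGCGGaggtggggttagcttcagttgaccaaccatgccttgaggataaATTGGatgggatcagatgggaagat
ATF3, chr1:212614768-212615017: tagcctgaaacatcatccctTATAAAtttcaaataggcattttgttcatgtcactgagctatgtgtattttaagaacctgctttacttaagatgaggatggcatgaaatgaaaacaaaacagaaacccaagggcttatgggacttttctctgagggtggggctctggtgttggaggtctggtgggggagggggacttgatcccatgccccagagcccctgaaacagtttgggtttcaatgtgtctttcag
The first holds TGATGNAA, the core of the C/EBP-ATF response element that ATF4 can bind, as TGATGGAA at -191, which 3.14% of the 35116 promoters of this length in the table hold on either strand. It also holds GGGCGG, the GC box (42.6% of promoters), at -74 and CCAAT (32% of promoters) on the minus strand at -25. The other holds TATAAA, the TATA box core (10.7% of promoters), at -230. Neither window contains TGACGTCA (the CRE/ATF palindrome, 1.65% of promoters), TGACG (its shorter form, 21.2%) or TGACTCA (the AP-1 site, 4.2%), nor do the windows of the other members shown. A match is a description of the letters only.

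The ATF3 SE had a summed signal of 48738 in TM 1, 63114.5 in TM 2 and 53648 in TM 3, a mean of 55166.5 ± 7308 (SD, n = 3). Its length was 59.2, 66.9 and 68.1 kb and its density 0.823, 0.944 and 0.788 per bp in TM 1, TM 2 and TM 3. It joined 9, 10 and 8 peaks. The SE thus had nearly the same downstream end in the 3 libraries, and TM 1 differed by a shorter upstream side. Ranked by summed signal it stood at 213 of 1130, 395 of 1507 and 216 of 1253, which is 18.8%, 26.2% and 17.2% down the list. Its density was 1.03, 0.833 and 0.840 times the median of the shared regions of the same library, and its length was above the median of each TM list. The rank by density was 44.2%, 62.6% and 59.8% down the list in TM 1, TM 2 and TM 3.

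To ask whether a single DMSO SE with the weakest TM signal would have been listed, that signal was set against the highest DMSO threshold. For ATF3 this ratio was 1.97 on the deposited scale, 1.74 after scaling by the median density of the shared regions and 2.07 after scaling by their total signal. It was the second highest of the 135 TM-only regions on the first scale and on the density scale, and number 4 on the total scale. On all 3 scales 31 TM-only regions (23.0%) had a ratio above 1, ATF3 and GADD45B among them. GADD45B had ratios of 1.28, 1.10 and 1.55 on the same scales and was number 22, 22 and 21 of 135. The medians of the TM-only regions were 0.930, 0.820 and 1.17. A DMSO library could still hold ATF3 signal in several unlisted regions, each of up to its threshold, since no value is given below it. Their sum could exceed the threshold, so the ratios do not bound the total DMSO signal at a locus.

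The nearest SE of another name to ATF3 was one linked to LINC01740, a long non-coding RNA gene. The merged ATF3 region starts at position 212716102, as does the ATF3 SE of TM 3. The ATF3 SE starts at 212724963 in TM 1 and 212716843 in TM 2, so the gap between the SEs themselves is longer there. From the start of the merged region, the LINC01740 SE lay 19.3, 23.1 and 21.6 kb upstream in TM 1, TM 2 and TM 3. Its summed signal was 67919, 71435 and 64123 in TM 1, TM 2 and TM 3, against 20425.5 in DMSO 2, the one DMSO library that listed it. Its density was 1.08, 1.41 and 1.01 per bp in the TM libraries and 0.403 in DMSO 2, or 1.34, 1.25 and 1.08 times the library median over shared regions in TM and 0.627 times in DMSO 2. The DMSO 2 value was lower than each TM value, and it lay above the DMSO 2 threshold and below those of DMSO 1 and DMSO 3. From the linked ATF3 start site to the nearest listed base was 910 kb in DMSO 1, 45.4 kb in DMSO 2 and 516 kb in DMSO 3.

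At GADD45A the listed part lay differently in TM and DMSO, while its length and summed signal overlapped between the groups. In TM it reached over the GADD45A start site, and in DMSO it began downstream of it. The merged region spanned chr1:68143707-68308397 (164.69 kb, positions as deposited). TM SEs at its left side were linked to GADD45A (1 in TM 1, 2 in TM 2 and 2 in TM 3), while the single SE of each DMSO library was linked to GNG12-AS1, the antisense RNA gene of GNG12, which encodes a G protein gamma subunit. The midpoints lay in the GNG12 transcript NM_018841, in intron 1 of 3 or intron 2 of 3, its last exon or its end, and none lay in GADD45A itself.

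The left 34.9 kb of the region, up to the first base listed in any DMSO library and so without DMSO by construction, was listed over 34.8, 33.4 and 34.9 kb in TM 1, TM 2 and TM 3. The right 71.0 kb, past the last base linked to GADD45A, was listed over 47.4, 32.3 and 0 kb in TM 1, TM 2 and TM 3, against 70.9, 63.9 and 71.0 kb in DMSO 1, DMSO 2 and DMSO 3. On the right side the groups did not overlap, with more listed in DMSO, and these borders were drawn from the lists themselves. The share of shared regions with such a separation is not given here. Shorter listed length in TM was common, with a median log2 change of -0.25 over shared regions. A stretch of 33.4 kb at chr1:68145225-68178585 was in every TM and in no DMSO list, and 12.8 and 1.18 kb were in every DMSO and in no TM list. Of the 670 shared regions 92 had any stretch of the first kind, with a median of 0.470 kb, and that of GADD45A was the third longest. The number with a stretch of the second kind is not given here, and some were much longer, such as 98126 bp in all at PDE4B. The linked start site at position 68150860 was inside a listed SE in the 3 TM libraries and 27.7, 55.3 and 48.4 kb from the nearest listed base in DMSO 1, DMSO 2 and DMSO 3.

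Covered start sites were counted over all linked genes, a comparison added after seeing the data. Of 1979 linked start sites whose strand could be set, 77 (3.89%) lay inside a listed SE in every TM and in no DMSO library, those of ATF3 and GADD45A among them. A start site entered this count only if an SE of some library was linked to it. Those of ATF3 and GADD45A entered through TM libraries alone, which favours their place among the 77. The reverse count, every DMSO and no TM library, is not given here. The DDIT4 start site was among 590 (29.8%) inside an SE in all 6 libraries, and that of GADD45B was inside none. When only SEs above the highest of the 6 thresholds were kept, the 77 became 31, with ATF3 and GADD45A still among them.

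Taken as a whole the GADD45A region held a summed signal of 96197, 122907 and 68539 in TM 1, TM 2 and TM 3, against 90729, 61838 and 83858 in DMSO 1, DMSO 2 and DMSO 3. The groups overlapped, and limma gave a log2 difference of 0.27 (SE 0.17, adjusted p = 0.266). Its density was 0.703, 1.11 and 0.890 per bp in TM and 0.700, 0.650 and 0.768 per bp in DMSO, and the centred log2 difference was -0.05 (SE 0.11, limma adjusted p = 0.761). Against this, limma called density higher in TM in 6.72% of the 670 shared regions and lower in 10.6%, and signal higher in 18.7% and lower in 13.7%, so the GADD45A region passed in neither measure. Without centring, its density difference was 0.33 (limma adjusted p = 0.312). The signal lay in 2 or 3 SEs in each TM library and in 1 in each DMSO library. The strongest single SE therefore averaged 55029 ± 10159 in TM and 78808 ± 15093 in DMSO (SD, n = 3 each), and the groups overlapped.

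The listed length of the GADD45A region was 137, 111 and 77.0 kb in TM and 130, 95.2 and 109 kb in DMSO (exact permutation p = 1, n = 3 each). The sign of this difference of -3.12 kb turned to 12.5 kb without TM 3, the library with no right part, and to 6.04 kb without DMSO 1. The region joined 18, 23 and 15 peaks in TM, against 27, 26 and 31 in DMSO. Peak numbers did not overlap between the groups (exact permutation p = 0.1, the smallest possible with n = 3 each), as in 54.3% of shared regions, so a lower peak number in TM was the common case.

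**Figure D1:**
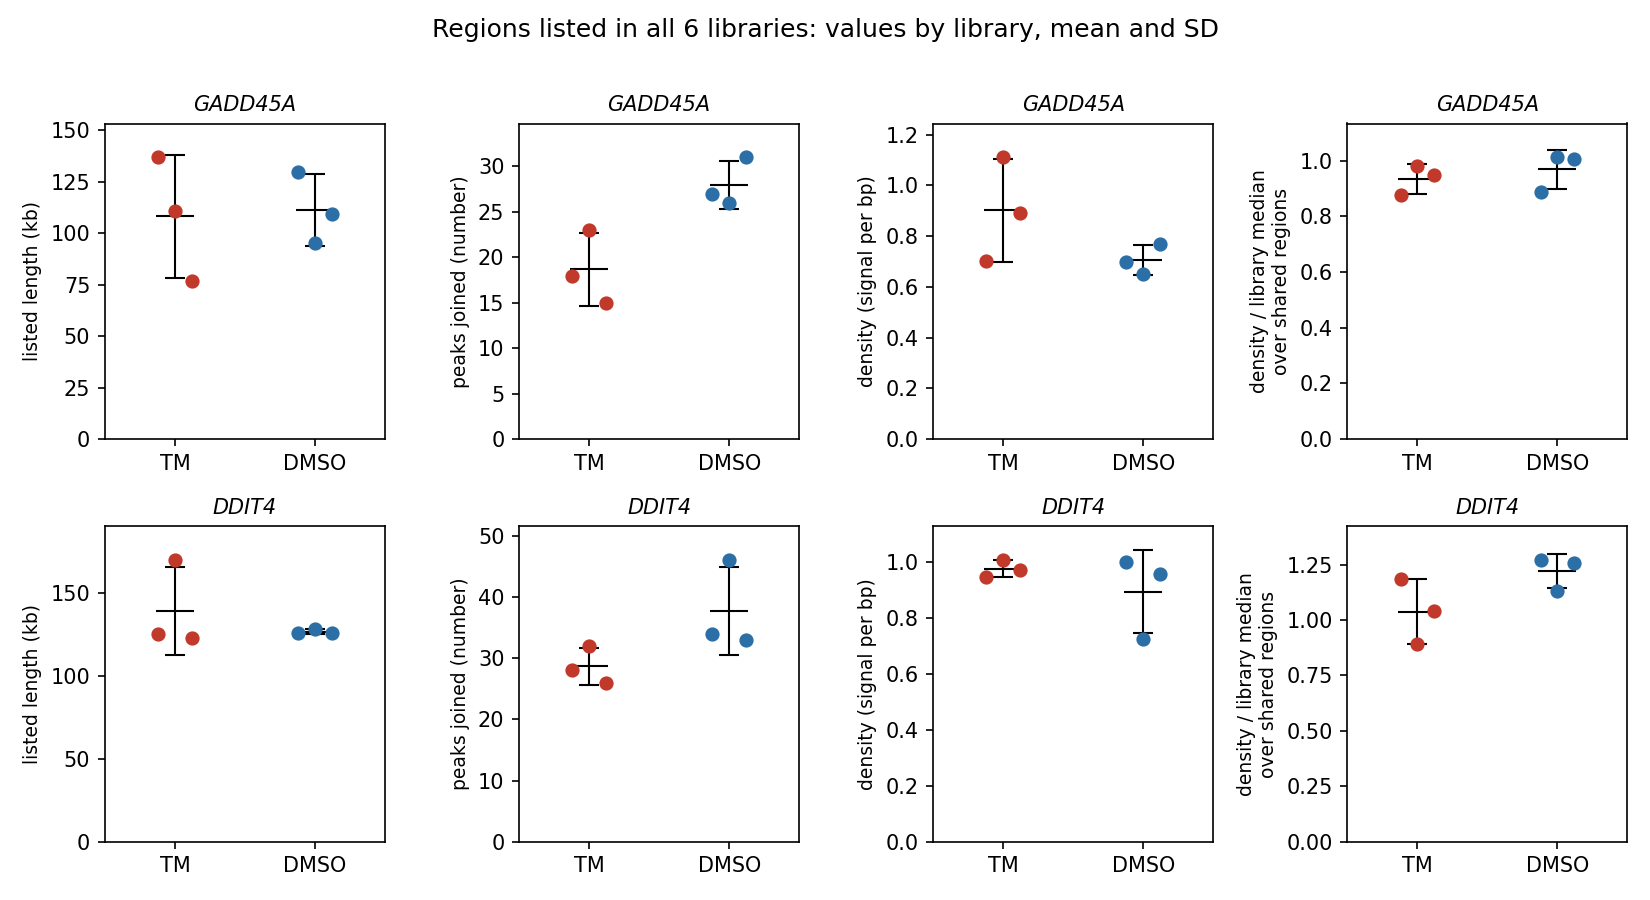
Listed length (kb), number of joined peaks, density (signal per bp) and density over the library median of shared regions at GADD45A (top) and DDIT4 (bottom), with 3 TM libraries left and 3 DMSO libraries right. Points are libraries, and the black bars give the mean and SD. Peak numbers separate the groups in both rows, 15 to 23 in TM against 26 to 31 in DMSO at GADD45A and 26 to 32 against 33 to 46 at DDIT4.

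GADD45B had 1 SE in each TM library, away from the gene. It lay at chr19:2524886-2555634 (positions as deposited), with its midpoint in intron 3 of 4 of NM_052847, a transcript of GNG7, which encodes another G protein gamma subunit. Its near edge was 48.8, 48.9 and 48.8 kb from the linked GADD45B start site in TM 1, TM 2 and TM 3. The SEs linked to both GADD45 genes therefore had their midpoints inside a G protein gamma gene beside them. The link rests on distance alone, and no value here ties the SE to transcription of GADD45B or of GNG7. The promoter in RefSeq GRCh38.p14, on the plus strand, is shown with its matches in capitals.
GADD45B, chr19:2475877-2476126: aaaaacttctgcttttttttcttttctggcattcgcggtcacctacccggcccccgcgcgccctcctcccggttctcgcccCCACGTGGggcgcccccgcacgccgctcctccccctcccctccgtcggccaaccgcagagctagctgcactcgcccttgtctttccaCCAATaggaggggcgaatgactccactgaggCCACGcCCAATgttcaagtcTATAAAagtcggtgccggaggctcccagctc
It holds TATAAA at -31 and CCAAT at -82 and -45. CCACG, the core that ERS elements place after a spaced CCAAT (33.5% of promoters), is at -169 and -51 and on the minus strand at -166. Each motif was searched singly, and the spaced pair of an ERS element was not searched. The matches at -169 and -166 overlap each other and CACGTG, the E-box of USF and MYC (6.34% of promoters), at -168.

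The GADD45B SE had a summed signal of 31699 in TM 1, 47288 in TM 2 and 33014 in TM 3 (37334 ± 8646, SD, n = 3). TM 2 was the highest, and its list also had the highest threshold. Divided by the threshold of its own library, the signal was 1.73, 1.80 and 1.75, and its rank was 490 of 1130, 653 of 1507 and 535 of 1253, or 43.4%, 43.3% and 42.7% down the list. Its length was 28.5, 30.6 and 28.5 kb, its density 1.11, 1.54 and 1.16 per bp, and it joined 6, 6 and 4 peaks. It was thus shorter than the median SE of each TM list, with a density 1.39, 1.36 and 1.23 times the median of shared regions. ATF3 showed the other form, a long SE of moderate density. From the GADD45B start site to the nearest listed base was 1281, 860 and 1675 kb in DMSO 1, DMSO 2 and DMSO 3. Within 500 kb of the SE the one other listed region was linked to MKNK2, a kinase gene of MAP kinase signalling, in TM 1 and TM 3 at 462 kb.

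**Figure D2:**
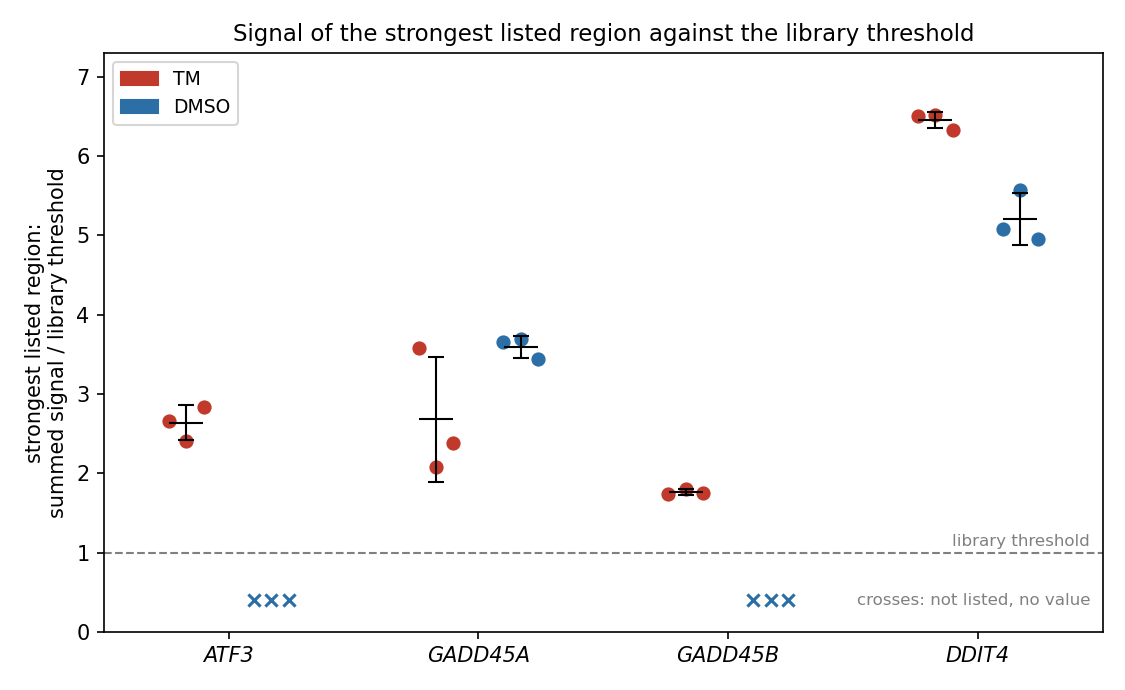
Summed signal of the strongest SE of each member divided by the threshold of its library, TM left of DMSO for each gene. Points are libraries, black bars the mean and SD of 3, the dashed line the threshold, and crosses libraries that did not list the region and have no value. GADD45B lies at 1.73 to 1.80 in TM, ATF3 at 2.40 to 2.84 in TM, and DDIT4 at 6.33 to 6.52 in TM against 4.96 to 5.57 in DMSO.

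DDIT4 had 1 SE in every library, which covered the whole gene, and it was the strongest member. The merged region was chr10:73954853-74124738 (positions as deposited), and the midpoints were 1.90 to 6.12 kb past the start site, in the last exon, at the transcript end or in intergenic sequence. The promoter in RefSeq GRCh38.p14, on the plus strand, is shown because the start site lay inside the SE in all 6 libraries.
DDIT4, chr10:72273674-72273923: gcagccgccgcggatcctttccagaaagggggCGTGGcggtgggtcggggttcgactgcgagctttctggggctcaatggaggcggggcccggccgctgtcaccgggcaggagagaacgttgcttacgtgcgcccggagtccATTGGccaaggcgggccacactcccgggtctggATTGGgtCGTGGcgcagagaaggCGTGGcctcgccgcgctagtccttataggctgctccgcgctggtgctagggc
It holds CCAAT on the minus strand at -108 and -75, and CCACG on the minus strand at -218, -68 and -52. These are single matches, and the spaced pair of an ERS element was not searched here either. Its GC content was 68.8%, against 63.2% in the GADD45B window and 49.2% and 44.8% in the ATF3 windows.

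The summed signal of the DDIT4 SE was 118877 in TM 1, 171329 in TM 2 and 119616 in TM 3, against 125894, 93346 and 120825 in DMSO 1, DMSO 2 and DMSO 3. TM 2 was the highest and DMSO 2 the lowest, and the other 4 values lay together. Its length was 125, 170 and 123 kb in TM and 126, 128 and 126 kb in DMSO, so TM 2 alone was extended, on both sides. The length difference of 12.5 kb (exact permutation p = 1, n = 3 each) became -2.79 kb without TM 2.

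On the centred scale the summed signal of DDIT4 was 0.27 higher in TM in log2 (SE 0.094, limma adjusted p = 0.0681), which did not pass 0.05. Without TM 2 it was 0.33 and passed (limma adjusted p = 0.0285), so its side of the threshold rested on that library. Its density was 0.949, 1.01 and 0.975 per bp in TM and 1.00, 0.727 and 0.958 per bp in DMSO. Relative to the library median over shared regions the density was 1.18, 0.890 and 1.04 in TM and 1.27, 1.13 and 1.26 in DMSO, which overlapped. The centred log2 difference was -0.24 (SE 0.13, limma adjusted p = 0.245), against 0.14 without centring (limma adjusted p = 0.701). The medians over the 670 shared regions were -0.03 for centred density, 0.02 for centred signal and -0.25 for length in log2, and the log2 length difference was 0.12 for DDIT4 and -0.07 for GADD45A.

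The rank of the DDIT4 SE depended on the measure. By summed signal it was 23 of 1130, 34 of 1507 and 35 of 1253 in TM, against 78 of 1132, 68 of 1290 and 99 of 1160 in DMSO. As a share of the list this was 2.04%, 2.26% and 2.79% in TM and 6.89%, 5.27% and 8.53% in DMSO, without overlap (exact permutation p = 0.1, n = 3 each), as in 29.7% of shared regions. Over the library threshold its signal was 6.50, 6.52 and 6.33 in TM and 5.08, 5.57 and 4.96 in DMSO, again without overlap (exact permutation p = 0.1, n = 3 each), as in 24.0% of shared regions. Ranked by density it was farther from the top in TM, at 30.4%, 57.0% and 42.5% of the list, against 17.4%, 24.4% and 16.6% in DMSO (exact permutation p = 0.1, n = 3 each), as in 33.9% of shared regions. The SE joined 28, 32 and 26 peaks in TM and 34, 46 and 33 in DMSO, without overlap (exact permutation p = 0.1, n = 3 each). The same 4 separations between groups were thus each met by 24.0% to 54.3% of shared regions.

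**Figure D3:**
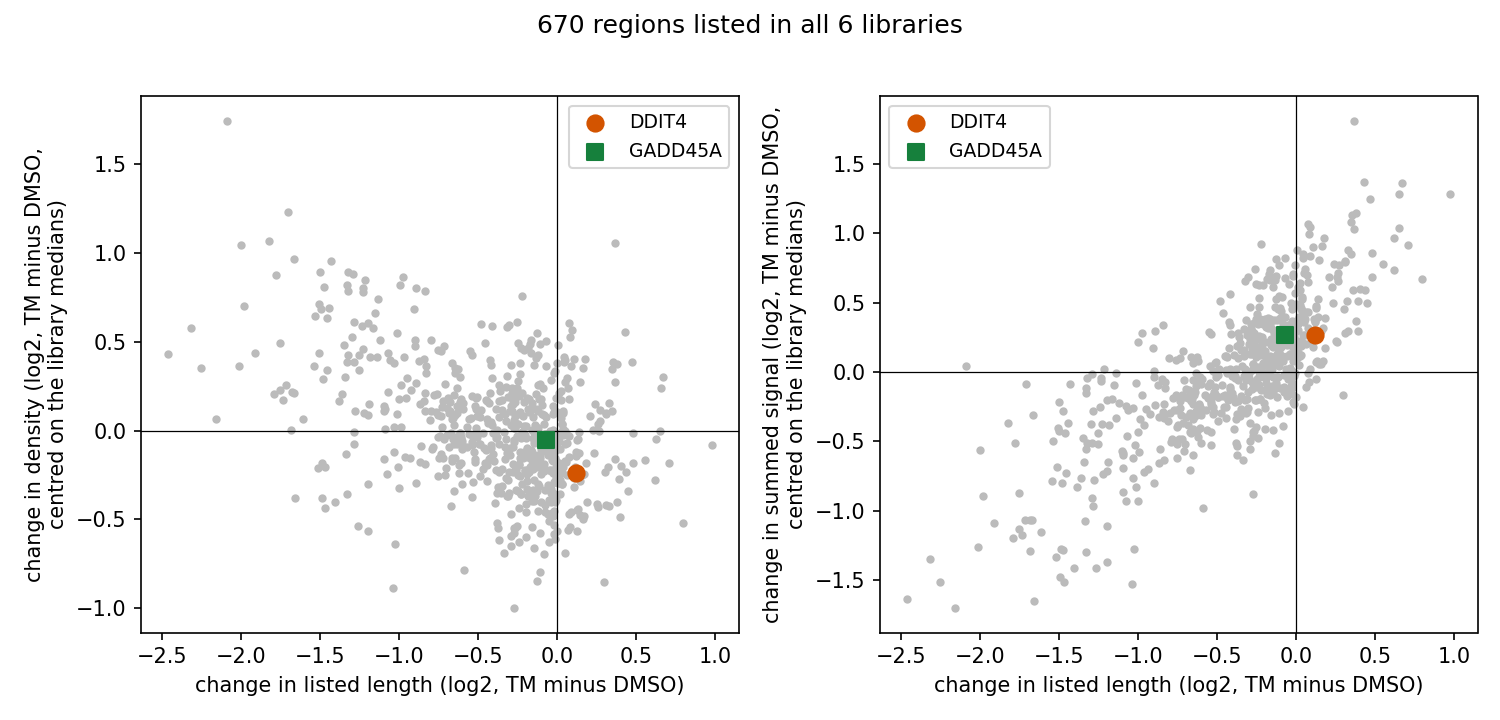
Change in centred density (left) and centred summed signal (right), log2 TM minus DMSO, against the change in listed length, log2 TM minus DMSO, for the 670 regions listed in all 6 libraries. Each grey point is a region, with DDIT4 as a circle and GADD45A as a square. Both lie inside the cloud, with log2 length changes of 0.12 and -0.07 where the median is -0.25, and both have a signal change of 0.27.

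Around DDIT4, an SE linked to VSIR, an immune checkpoint receptor gene, was listed in TM 1, TM 2 and TM 3 and in no DMSO library. It lay 420 to 421 kb from the merged DDIT4 region, with a summed signal of 20875, 28394 and 20292. On the same side, an SE linked to CHST3, a chondroitin sulfotransferase gene, was listed in DMSO 1 and DMSO 2 only, with 37412 and 33891. An SE linked to MCU, the mitochondrial calcium uniporter gene, was listed in DMSO 2 only, with 17952.

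Among the regions with the most similar pattern, ATF3 was nearest to RUNX1, CLPTM1L and STK24, with mean absolute differences of 6.53, 6.74 and 8.15 percentage points in rank over the 3 TM libraries. GADD45B was nearest to IL6ST-DT (0.291 points), a region of MIR4771-1 and MIR4771-2 (1.82 points) and MIR1268A (4.23 points). For the shared members likeness was taken in centred log2 density over 6 libraries, each region set to mean 0. GADD45A was nearest to a region of BBS12, FGF2 and NUDT6 (0.036), RPS16P5 (0.045) and TRIO (0.045), and DDIT4 to PXN (0.041), FZD2 (0.046) and DMRTB1 (0.051). These names were found by search over all regions and carry no test.

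The pathways of the 4 genes were followed in 4 gene lists, 133 genes without the members, of which 25 were linked to an SE in any library. Of these 25 genes, 5 (20%) were TM-only by name, 0 were DMSO-only and 6 (24%) were linked in all 6 libraries. Over all 2002 linked genes 139 (6.94%) were TM-only, 94 (4.7%) DMSO-only and 523 (26.1%) in all 6. The lists were chosen with earlier results of these data known, and their counts are a description.

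In the integrated stress and unfolded protein response list, 7 of 41 genes were linked. TRIB3, a pseudokinase induced through ATF4, was TM-only with a summed signal of 43456 ± 5964 (SD, n = 3). SLC3A2, the heavy chain of amino acid exchangers, was TM-only with 23631 ± 5985 (SD, n = 3), and ERN1, the ER stress sensor IRE1α, with 39870 ± 11317 (SD, n = 3). SLC7A11, the cystine transporter that pairs with SLC3A2, was linked in all 6 libraries, at 51905 ± 23143 in TM and 37664 ± 6143 in DMSO (SD, n = 3 each), and its centred signal difference of 0.39 in log2 did not pass (limma adjusted p = 0.0583). GDF15, a stress-induced cytokine, was linked in TM 3 only, to an SE of 38957 in a region merged with one linked to LSM4. The DMSO libraries listed only the part near LSM4, over 68.1, 70.5 and 67.9 kb, and the TM libraries also listed the part near GDF15, which has no DMSO value. The sums over the region therefore cover different bases. Their difference was 1.04 in log2 (limma adjusted p = 0.00259), against 0.47 for the strongest single SE (limma adjusted p = 0.333) and 1.03 without centring (limma adjusted p = 0.0855), and density differed by -0.0016 (limma adjusted p = 0.996). Both parts were joined through a single SE of TM 1, and without TM 1 the difference of the part near LSM4 was -0.19 (limma adjusted p = 0.307). VEGFA, the angiogenic growth factor, was linked in 0 TM and 2 DMSO libraries, and ATF6, an ER stress sensor, in 1 TM and 0 DMSO libraries.

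In the list of bZIP and immediate-early genes, 9 of 37 were linked. IER3, an immediate-early gene, was the 1 TM-only gene by name (60397 ± 12938, SD, n = 3), although its region was listed in all 6 libraries. A single SE linked to LINC00243 spanned it in each DMSO library, and each TM library listed 2 shorter SEs there, of which one was linked to IER3. No base there was in every TM and in no DMSO list, in contrast to the 33.4 kb at GADD45A. DUSP1, a MAP kinase phosphatase, was linked in 2 TM and 2 DMSO libraries. Its shared region also held stronger SEs linked to other genes. In TM 2 one linked to ERGIC1 had 209362, against 95034 for that of DUSP1. In DMSO 1 one linked to LOC100268168 had 108891, against 56615. The whole region rose in density by 0.42 and in summed signal by 0.85 in log2 (limma adjusted p = 0.0391 and 0.011). Without centring the signal difference was 0.84 and did not pass (limma adjusted p = 0.0891). The density call was lost when TM 1, TM 3 or any DMSO library was left out, with adjusted p of 0.0601 to 0.124 and differences of 0.42 to 0.47. ATF1 and CEBPD, transcription factors of the bZIP class, and IER5, an immediate-early gene, were linked in all 6 libraries, with density differences of 0.18, 0.46 and -0.16 in log2 that did not pass (limma adjusted p = 0.485, 0.0661 and 0.300). A second shared region of ATF1 differed by 0.10 (limma adjusted p = 0.718). FOSL2, an AP-1 subunit, was linked in 2 TM and 3 DMSO libraries, in a shared region whose density and signal differences of 0.03 and -0.23 did not pass (limma adjusted p = 0.935 and 0.421).

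In the list of the GADD45 family, its partners and p53 targets, 5 of 30 genes were linked and 0 were TM-only apart from GADD45A and GADD45B. ZMAT3, an RNA-binding p53 target, had an SE in all 6 libraries, with a summed signal of 18906, 68839 and 25299 in TM 1, TM 2 and TM 3, against 92751, 66969 and 93050 in DMSO 1, DMSO 2 and DMSO 3. Its listed length was 16.9, 57.9 and 16.7 kb in TM 1, TM 2 and TM 3, against 59.7, 56.9 and 57.7 kb in DMSO 1, DMSO 2 and DMSO 3, so the sums of TM 1 and TM 3 cover fewer bases. The centred summed signal differed by -1.37 in log2 (limma adjusted p = 0.00865), and the density difference of -0.56 did not pass (limma adjusted p = 0.0549). CDKN1B, the cell cycle inhibitor p27, was linked in 3 TM and 2 DMSO libraries, in a shared region whose density and signal differences of 0.13 and -0.21 did not pass (limma adjusted p = 0.621 and 0.272). In the mTORC1 list, 4 of 32 genes were linked. RHEB, the GTPase that activates mTORC1 and is switched off by the complex through which DDIT4 acts, was TM-only by name (26371 ± 4057, SD, n = 3). Its shared region was linked to CRYGN in DMSO, over 119, 97.1 and 119 kb in DMSO 1, DMSO 2 and DMSO 3. TM 1 listed 59.7 and 37.2 kb there, TM 2 only 32.1 kb and TM 3 only 37.4 kb, so the sums cover different bases. The signal difference of -0.65 in log2 did not pass (limma adjusted p = 0.159), nor did the density difference of 0.15 (limma adjusted p = 0.485). NR3C1, the glucocorticoid receptor, was linked in all 6 libraries, at 57138 ± 41577 in TM and 47493 ± 9405 in DMSO (SD, n = 3 each). These sums take only SEs of that name. An SE of the second region was linked to NR3C1 in TM 2, TM 3 and DMSO 2 and to MIR5197 in the others, so the sums cover different bases. Of its 2 shared regions one did not pass in density (0.11, limma adjusted p = 0.611). The other, linked to MIR5197 in some libraries, fell by 0.58 in centred density (limma adjusted p = 0.0200), a call lost without TM 3, DMSO 1 or DMSO 3 (adjusted p = 0.0518 to 0.0616), without centring (-0.20, limma adjusted p = 0.499) and when scaled to total signal (-0.17, limma adjusted p = 0.394).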

How the data were processed

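H3K27ac ChIP-seq of HepG2 cells was done by the authors in 3 TM and 3 DMSO libraries. Groups came from the treatment in the labels and numbers from the titles. In each library the authors called MACS peaks, joined them into SEs and deposited a summed signal per SE above a library threshold. The submitters' processing notes name CASAVA 1.4 and the builds mm9 and hg38, without roles. A legend in the study calls the signals ranked in TM-treated cells normalized to input, and whether that holds for the deposited values is not given in the sources used here, nor are the aligner, the scaling and the coordinate build. Read depth is unknown. All deposited signals were whole steps of 0.0001 per bp (tolerance 0.001 of a step) times length. No SEs of a library lay closer than 12507 bp.

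SEs sharing 1 bp were merged across libraries, and signal was summed within merged regions. Shared regions were tested with limma 3.58.1 (trend, R 4.3.3) on log2 density and log2 signal centred on each library's median, with Benjamini-Hochberg adjusted p under 0.05 over all 670. Single values were compared by exact two-sided permutation tests (scipy 1.17.1). The limma code was tested on simulated data. The comparison of start sites was added after seeing the data, and start sites were computed from SE midpoints and deposited distances, for 2446 of 2660 linked transcripts with a known strand. Gene names were matched by Entrez ID in RefSeq GRCh38.p14 for 7434 of 7472 SEs, and 3 of the 4 genes had a promoter sequence there. Of each promoter the 250 bases before the start site were searched for 9 motifs. Python 3.11.15, pandas 2.3.3, numpy 2.4.6 and matplotlib 3.10.9 were used.

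The members, the 4 gene lists and the rule for named genes (the members, overlapping SEs, other SEs within 500 kb, list genes that were TM-only, DMSO-only or at shared regions, and the 3 most similar regions per member) were chosen with earlier results of these data known. VEGFA and ATF6, the remaining linked genes of the integrated stress and unfolded protein response list, were named outside that rule. Genes of the same kind in the other lists were not named in the results, such as MYC (2 TM and 0 DMSO libraries) and TXNIP (0 TM and 1 DMSO). Alternatives were the replicate block, no centring, scaling to total signal, limma without trend, a merge at 50% overlap, a common threshold, lists of equal length (1130), the strongest single SE, ranking by density and leaving out each library.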

Additional observations from a re-analysis of the deposited data

How the results depend on the processing

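Each of 28 results was recomputed under the alternatives, 263 values in all, and 207 kept their direction and their side of the threshold or their size. Density was called higher in TM in 45 shared regions and lower in 71, against 133 and 1 without centring, 256 and 2 when scaled to total signal, and 20 and 47 among regions above a common threshold. For summed signal the 125 and 92 became 7 and 22 without centring and 38 and 44 above the common threshold. At an unadjusted p under 0.05, 226 regions differed in density and 292 in signal. The GADD45A density difference was 0.33 without centring, 0.35 by total signal and 0.018 for the strongest single SE, and its signal difference was -0.49 for the strongest single SE. The DDIT4 density difference was 0.14 without centring and 0.16 by total signal. The GADD45A call difference (percent of TM minus percent of DMSO libraries) was -33.3 when 50% of the merged region had to be listed (2 TM, 3 DMSO) and 100 by linked name alone. Ranked by density, ATF3 stood 55.5% and GADD45B 24.1% down the TM lists on average, and DDIT4 was 23.8 points farther down in TM. The 77 TM-only start sites became 31 at the common threshold; this result and its alternatives were all chosen after seeing the data. ATF3, GADD45B and DDIT4 kept their calls under every alternative to the calls.

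With the replicate block, density calls were 46 higher and 49 lower and signal calls 75 and 60, and no call at a member changed, while the DUSP1 density call was lost (adjusted p = 0.0805). Same-numbered libraries did not deviate together (r = -0.008, -0.047 and -0.026), so the numbers were not taken as pairs.

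Leaving out 1 library gave 23 to 60 higher and 28 to 84 lower density calls, and 64 to 135 higher and 55 to 116 lower signal calls. The density difference ranged from -0.12 to 0.02 at GADD45A (0.021 without TM 1) and from -0.32 to -0.13 at DDIT4, and the signal difference from 0.10 to 0.41 and from 0.20 to 0.33. Listed length ranged from -17.5 to 12.5 kb at GADD45A and from -2.79 to 20.8 kb at DDIT4, and peak numbers from -11.5 to -7.5 and from -11.3 to -4.83. The ratio to the highest DMSO threshold was 1.97 to 2.16 for ATF3 and 1.28 to 1.33 for GADD45B, and TM-only start sites numbered 82 to 107. The signal difference of the region with GDF15 ranged from -0.19 without TM 1 to 1.13. Where a value moved, the cause was not tested beyond what the alternative itself changed. Signal below a library's threshold is not given, which limits every statement on an unlisted region.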
